A study of Mus musculus with 6 samples.

Results

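The genes described here are the 10 that encode the main enzymes of fatty acid synthesis and desaturation and the transcription factor that drives them, Acly, Acaca, Fasn, Scd, Elovl5, Elovl6, Fads1, Fads2, Srebf1 and Me1. They were taken from the deposited table of 22487 rat genes by gene name. Each name stood on a single row, so all 10 entered with no choice between rows. The libraries came from ovarian tissue of adult female rats, labelled WT, in 2 groups of 3: animals exposed to fine airborne particulate matter (PM2.5) from a cowshed, and untreated controls. A time of 30 days stands in every title with no start point, and the labels give neither strain nor age in figures. The organism field names the mouse, but all 22487 identifiers are rat Ensembl identifiers. Whether each library is a different animal is not labelled, so p-values here reflect the spread among libraries, which may be technical. The question put to the 10 genes is whether their transcripts differ in ovaries of exposed animals.

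Cells build fatty acids in the cytosol from acetyl-CoA, which is released from citrate, carboxylated to malonyl-CoA and joined into palmitate with NADPH as the reductant. Elongases then lengthen the chain and desaturases place double bonds in it, either in the saturated products of synthesis or in the essential fatty acids of the diet. The transcription factor SREBP-1, made from Srebf1, is the classical activator of these genes when insulin or liver X receptor signals are high. In the ovary, fatty acids are stored with cholesterol in the droplets of steroid-producing cells, and arachidonate made by the front-end desaturases is the precursor of prostaglandins.

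The 10 genes did not move as a block. Scd and Fasn lay below all controls in each PM2.5 library, Srebf1 lay above all controls in each PM2.5 library, and the other 7 overlapped between the groups. Of the 10 log2 fold changes 5 were negative and 5 positive, with a median of 0.16, beside 0.00 over all 15303 genes tested. None of the 10 passed edgeR's quasi-likelihood test at an adjusted p below 0.05 over all genes, a test that called 0.928% of all genes (0.19% higher and 0.738% lower). At an unadjusted p below 0.05 there were 4, Scd and Fasn lower and Srebf1 and Fads1 higher, where 20.9% of all genes passed (9.17% higher and 11.7% lower). DESeq2, which called 11.6% of the genes it gave an adjusted p, called Scd and Fasn, and had 5 of the 10 at an unadjusted p below 0.05, where 23.9% of all genes passed. Limma on log2(FPKM + 1), which called 1.02% of all genes, called none of the 10, with 3 at an unadjusted p below 0.05, where 19.9% of all genes passed. Groups did not overlap in 27.2% of all genes tested (12.1% with PM2.5 above and 15.2% below), so 3 of 10 is near the background.

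Library totals lay between 49554241 and 60749578 counts in PM2.5 and between 47662338 and 51530427 in controls, with 19258 to 19841 genes detected in a library. All 10 genes passed the filter of a mean of at least 0.5 FPKM (the authors' fragments per kilobase, scaled to library total). The lowest count of any of them in any library was 217, for Elovl6. Ovarian identity was plain in every library, with summed granulosa cell markers of 3929 to 11000 CPM in PM2.5 and 1915 to 8479 CPM in controls. CPM are counts scaled to the library's total over the tested genes, adjusted by its TMM factor. Summed luteal cell markers were 10413 to 25324 CPM in PM2.5 and 16032 to 32218 CPM in controls. Control 3 had the highest luteal and the lowest granulosa sum of the 6 libraries. PM2.5 library 1 had the highest luteal and the lowest granulosa sum of its group. The luteal rank of control 3 leaned on Akr1c3, at 9536 CPM there and 296 CPM in PM2.5 library 1. Star, Ptgfr and Parm1 were also higher in control 3 than in PM2.5 library 1. Cyp11a1, Hsd3b1, Scarb1, Lhcgr and Prlr were higher in PM2.5 library 1. In bulk tissue, fewer cells of a type and less RNA per cell cannot be told apart.

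**Figure D1:**
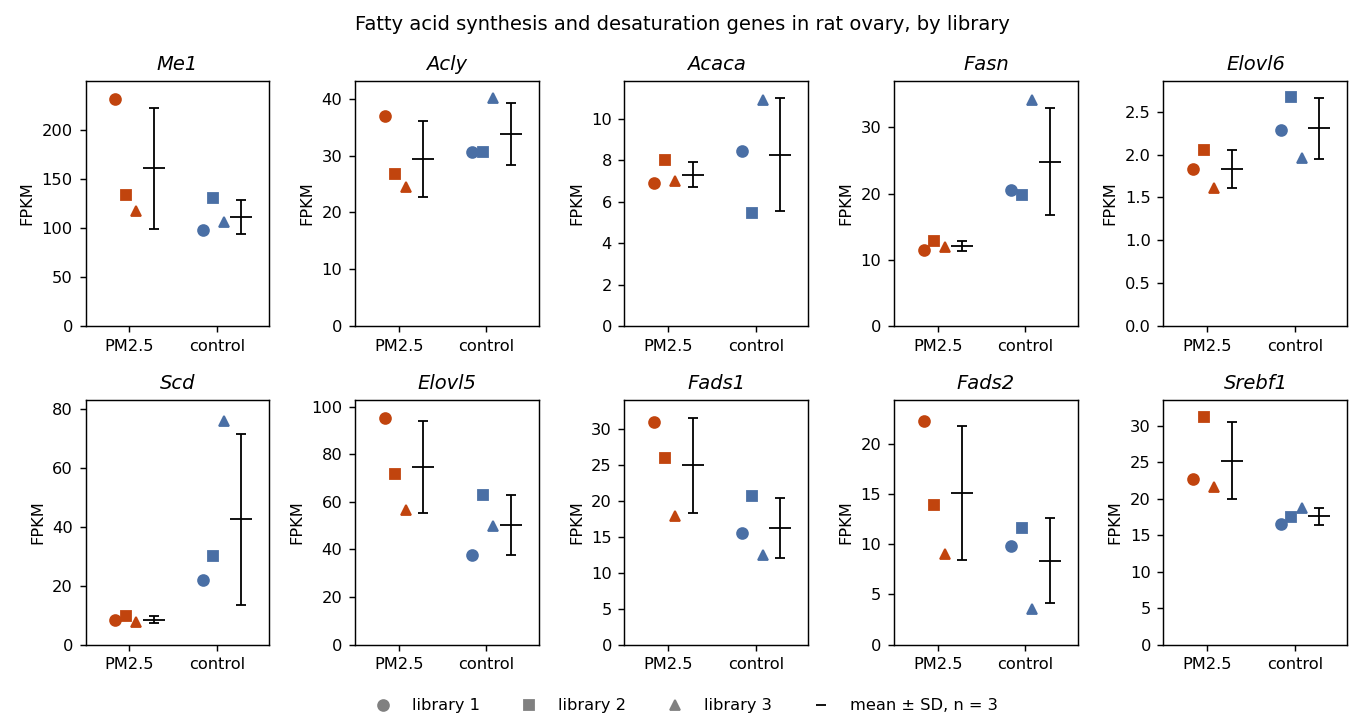
Each panel plots 1 gene in FPKM by library, from an axis that starts at 0, with PM2.5 at the left, controls at the right and the mean ± SD of 3 libraries in black. Scd and Fasn lie low and close together in PM2.5, Srebf1 lies above the controls in all 3 PM2.5 libraries, and Me1, Elovl5, Fads1 and Fads2 are highest in PM2.5 library 1.

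Scd encodes stearoyl-CoA desaturase, the enzyme that turns stearate and palmitate into the monounsaturated oleate and palmitoleate. It had 8.27, 9.61 and 7.57 FPKM in PM2.5 libraries 1 to 3, against 21.8, 29.9 and 75.8 FPKM in controls 1 to 3. The PM2.5 libraries differed among themselves by 1.27-fold from lowest to highest, and the controls by 3.47-fold, with control 3 far above the other two. Its mean was 44.3 ± 5.48 CPM in PM2.5 and 226 ± 163 CPM in controls (SD, n = 3 in each group). The log2 fold change was -2.35 ± 0.49 (SE), a 5.11-fold higher fitted level in controls, and it missed the threshold in edgeR (quasi-likelihood adjusted p = 0.0779) and passed in DESeq2 (adjusted p = 2.84e-05). Without control 3 the log2 fold change was -1.58 ± 0.19 (edgeR quasi-likelihood adjusted p = 0.1), a smaller value in the same direction. Leaving out any other single library gave -2.68 to -2.28.

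Fasn encodes fatty acid synthase, the multi-domain enzyme that joins malonyl units into palmitate. It had 11.5, 12.9 and 11.9 FPKM in PM2.5 libraries 1 to 3 and 20.6, 19.8 and 34.1 FPKM in controls 1 to 3. The PM2.5 values lay within 1.12-fold of each other, the narrowest spread of the 10 genes in that group, and control 3 was again the highest control. The mean was 137 ± 8.27 CPM in PM2.5 and 283 ± 103 CPM in controls. The log2 fold change of -1.05 ± 0.26 missed the threshold in edgeR (quasi-likelihood adjusted p = 0.107) and passed in DESeq2 (adjusted p = 0.00543). With control 3 left out it was -0.71 ± 0.15 (edgeR quasi-likelihood adjusted p = 0.152).

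Acly encodes ATP citrate lyase, which releases acetyl-CoA from citrate, and Acaca encodes acetyl-CoA carboxylase 1, which makes malonyl-CoA in the committed step. Acly had 37.0, 26.7 and 24.4 FPKM in PM2.5 libraries 1 to 3, against 30.7, 30.6 and 40.2 FPKM in controls 1 to 3. Acaca had 6.92, 8.03 and 7.01 FPKM in PM2.5 libraries 1 to 3, against 8.45, 5.45 and 10.9 FPKM in controls 1 to 3. The groups overlapped in both genes, and control 3 was the highest library for both. Log2 fold changes were -0.22 ± 0.22 for Acly and -0.19 ± 0.27 for Acaca, with adjusted p of 0.606 and 0.717 in edgeR's quasi-likelihood test. The direction of Acaca was not stable, at 0.10 ± 0.23 without control 3.

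Me1 encodes the cytosolic malic enzyme, which supplies NADPH for synthesis, and it was the most abundant of the 10 per length in every library. It had 231, 134 and 117 FPKM in PM2.5 libraries 1 to 3 and 97.7, 131 and 106 FPKM in controls 1 to 3. PM2.5 library 1 stood above the rest, while libraries 2 and 3 lay close to the controls. The log2 fold change was 0.52 ± 0.28 (edgeR quasi-likelihood adjusted p = 0.329), and 0.17 ± 0.18 without PM2.5 library 1.

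Elovl6, the elongase that turns palmitate into stearate, was the least abundant per length in every library. It had 1.83, 2.06 and 1.61 FPKM in PM2.5 libraries 1 to 3, against 2.29, 2.67 and 1.96 FPKM in controls 1 to 3. Only PM2.5 library 2 and control 3 crossed, and the log2 fold change was -0.33 ± 0.28 (edgeR quasi-likelihood adjusted p = 0.529).

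The genes of polyunsaturated fatty acid synthesis had positive fold changes. Fads2 encodes the front-end desaturase that acts first on linoleate and alpha-linolenate, Elovl5 the elongase that follows it, and Fads1 the desaturase that completes arachidonate. Fads2 had 22.3, 13.9 and 9.06 FPKM in PM2.5 libraries 1 to 3, against 9.84, 11.6 and 3.57 FPKM in controls 1 to 3. Elovl5 had 95.3, 71.8 and 56.7 FPKM in PM2.5 libraries 1 to 3, against 37.7, 63.0 and 50.0 FPKM in controls 1 to 3. Fads1 had 30.9, 25.9 and 17.9 FPKM in PM2.5 libraries 1 to 3, against 15.5, 20.7 and 12.5 FPKM in controls 1 to 3. In all 3 genes PM2.5 libraries 1 and 2 exceeded every control, and PM2.5 library 3 lay inside the control range. The log2 fold changes were 0.87 ± 0.47 for Fads2, 0.57 ± 0.26 for Elovl5 and 0.62 ± 0.25 for Fads1, with adjusted p of 0.336, 0.263 and 0.222 in edgeR's quasi-likelihood test. Without PM2.5 library 1 they were 0.48, 0.35 and 0.44, and without control 3, which had the lowest Fads2 and Fads1 of all libraries, Fads2 was 0.53.

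Fads1 and Fads2 lie side by side on chromosome 1, Fads2 from 206708783 to 206748789 on the minus strand and Fads1 from 206827765 to 206842734 on the plus strand, by the table's own positions (the build was not named in what was used here). The gap between them is 79.0 kb with no other gene listed inside it. Fads3, a related gene, ends 4.01 kb before Fads2, and it had a log2 fold change of -0.29 ± 0.26. Fth1, the abundant ferritin heavy chain gene, is listed on the plus strand across 16642 bases of Fads2. Fth1 had 74805 to 209907 counts per library, and 2516, 3458 and 3982 CPM in PM2.5 libraries 1 to 3 against 2350, 1991 and 1511 CPM in controls 1 to 3. The strand setting of the counting is not given, so reads of Fth1 and Fads2 may not be separated, and the part of Fth1 in the Fads2 values was not tested. Fads2 had 81.2, 50.7 and 32.9 CPM in PM2.5 libraries 1 to 3, against 35.9, 40.6 and 13.6 CPM in controls 1 to 3. Both genes had positive fold changes, 0.77 ± 0.26 for Fth1, and both were lowest in control 3, while within PM2.5 Fth1 was highest in library 3 and Fads2 in library 1. Acly likewise overlaps the opposite-strand genes Fkbp10 and Eif1, and Srebf1 overlaps Rai1 over 596 bases.

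Srebf1 lies on chromosome 10 from 45007637 to 45029650, the chromosome that also carries Acaca (69014170 to 69276457), Acly (85412049 to 85463320) and Fasn (106072091 to 106090261). Elovl5 (78790846 to 78857284) and Me1 (87549043 to 87660304) lie on chromosome 8 and Elovl6 (218063804 to 218171186) on chromosome 2. Srebf1 had 22.7, 31.3 and 21.7 FPKM in PM2.5 libraries 1 to 3 and 16.5, 17.5 and 18.8 FPKM in controls 1 to 3. The groups did not overlap, and the controls lay within 1.14-fold of each other. The log2 fold change was 0.51 ± 0.18 (edgeR quasi-likelihood adjusted p = 0.184), and 0.33 ± 0.17 without PM2.5 library 2, the highest. Gene counts do not separate the transcripts Srebf1 makes from its alternative first exons, nor show how much of its protein was processed to the active form.

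**Figure D2:**
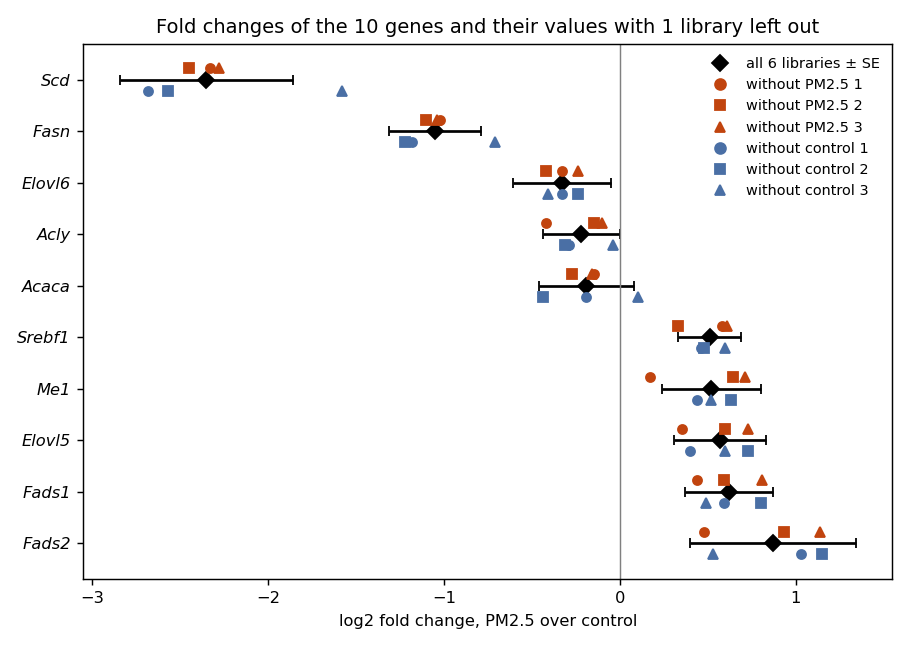
Black diamonds give the log2 fold change of each gene, PM2.5 over control, with its SE from edgeR, and coloured symbols the value with 1 library left out. Leaving out control 3 moved Scd to -1.58 and Fasn to -0.71, leaving out PM2.5 library 1 moved Me1 to 0.17, and only Acaca crossed 0.

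The order of the 10 genes by FPKM differed between the groups mainly through Scd. In PM2.5, by mean, Me1 (161 ± 61.6 FPKM) and Elovl5 (74.6 ± 19.5 FPKM) led, followed by Acly, Srebf1 and Fads1 between 29.4 and 24.9 FPKM, whose ranges overlapped. Fads2 (15.1 ± 6.72 FPKM), Fasn (12.1 ± 0.721 FPKM), Scd (8.48 ± 1.04 FPKM), Acaca (7.32 ± 0.616 FPKM) and Elovl6 (1.83 ± 0.226 FPKM) came after them. In that order the neighbours Fads1 and Fads2, Fads2 and Fasn, and Scd and Acaca overlapped, while Fasn and Scd did not. In controls, Me1 (112 ± 17.6 FPKM) and Elovl5 (50.2 ± 12.6 FPKM) again led, followed by Scd (42.5 ± 29.1 FPKM), Acly (33.9 ± 5.51 FPKM) and Fasn (24.8 ± 8.02 FPKM), each overlapping its neighbour from Elovl5 on. Srebf1 (17.6 ± 1.14 FPKM) and Fads1 (16.3 ± 4.16 FPKM) came next by mean and overlapped each other, and Fads1, at 20.7 FPKM in control 2, also overlapped Fasn. The ranges likewise overlapped between Fads2 (8.32 ± 4.21 FPKM) and Acaca (8.27 ± 2.74 FPKM), and Elovl6 (2.31 ± 0.358 FPKM) was again last. Scd ranked 8 in every PM2.5 library, against 4, 4 and 2 in controls 1 to 3. Fasn ranked 7, 7 and 6 in PM2.5 libraries 1 to 3 and 5, 6 and 5 in controls 1 to 3. The summed level of the 10 genes overlapped between the groups, at 468, 336 and 275 FPKM in PM2.5 libraries 1 to 3, against 261, 333 and 354 FPKM in controls 1 to 3.

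Ratios of 2 genes within a library do not depend on how libraries are scaled. The ratio of Scd to Fasn was 0.718, 0.745 and 0.638 in PM2.5 libraries 1 to 3, against 1.06, 1.52 and 2.23 in controls 1 to 3. Thus Scd was below Fasn per length in every PM2.5 library and above it in every control. The ratio of Acly to Fasn was 3.22, 2.07 and 2.05 in PM2.5 libraries 1 to 3, against 1.49, 1.55 and 1.18 in controls 1 to 3. Elovl6 to Elovl5, an elongase of saturated against one of polyunsaturated chains, was 0.0192, 0.0287 and 0.0283 in PM2.5 libraries 1 to 3 and 0.0607, 0.0424 and 0.0391 in controls 1 to 3. These 3 ratios did not overlap between the groups, and each had a two-sided exact permutation p of 0.1, the smallest that 3 against 3 libraries allow, and 0.133 after Benjamini-Hochberg adjustment over 4 ratios. The ratio of Fads1 to Fads2 was 1.38, 1.86 and 1.98 in PM2.5 libraries 1 to 3, against 1.58, 1.79 and 3.51 in controls 1 to 3, and the groups overlapped (exact permutation p = 0.6, adjusted 0.6).

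A further 4 ratios were chosen after the values were seen. Fasn to Srebf1 was 0.506, 0.413 and 0.548 in PM2.5 libraries 1 to 3, against 1.25, 1.13 and 1.81 in controls 1 to 3. Scd to Fads2 was 0.37, 0.69 and 0.836 in PM2.5 libraries 1 to 3, against 2.22, 2.59 and 21.3 in controls 1 to 3. Per length, the factor's transcript exceeded that of its classical target Fasn in all 3 PM2.5 libraries and lay below it in all 3 controls. Scd lay below Fads2 in all 3 PM2.5 libraries and above it in all 3 controls. Fads1 to Elovl5 averaged 0.334 ± 0.0241 in PM2.5 and 0.331 ± 0.0811 in controls. Scd to Scd2 is given with the other desaturases. These 4 were not tested.

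Among the other desaturases and the cytochrome b5 genes that carry electrons to them, none of 8 tested genes passed edgeR's quasi-likelihood test, with 1 at an unadjusted p below 0.05 and 1 called by DESeq2, and the median log2 fold change was 0.13. Scd2, the second stearoyl-CoA desaturase, was far more abundant than Scd, with 395, 254 and 270 FPKM in PM2.5 libraries 1 to 3, against 281, 284 and 377 FPKM in controls 1 to 3. By the table's positions Scd2 lies on chromosome 1 from 243169236 to 243182232 and Scd on the same chromosome from 243269747 to 243282562. The Scd2 groups overlapped, and its log2 fold change was -0.05 ± 0.25 (edgeR quasi-likelihood adjusted p = 0.936). The ratio of Scd to Scd2 was 0.0209, 0.0378 and 0.028 in PM2.5 libraries 1 to 3 and 0.0778, 0.106 and 0.201 in controls 1 to 3. The genes are similar in sequence, so Scd is uncertain as far as the counting could split reads between them. Cyb5a, the microsomal cytochrome b5, had 47.2, 38.5 and 31.2 FPKM in PM2.5 libraries 1 to 3 and 23.3, 23.2 and 22.4 FPKM in controls 1 to 3. It stood above the controls in all 3 libraries, with a log2 fold change of 0.76 ± 0.17, and passed DESeq2 (adjusted p = 0.00483) but not edgeR's quasi-likelihood test (adjusted p = 0.0964). The sphingolipid desaturases Degs1 at -0.22 ± 0.15 and Degs2 at 1.30 ± 0.62 did not pass.

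Across the 9 lists of surrounding genes, 105 of 116 genes were tested and 2 passed edgeR's quasi-likelihood test, both lower, where 0.928% of all genes passed. DESeq2 called 19 of the 105, where it called 11.6% of all genes. At an unadjusted p below 0.05 in edgeR 11 were higher and 16 lower, where 9.17% of all genes were higher and 11.7% lower, and these shares are the background for the counts of each list. Nfya, the DNA-binding subunit of NF-Y, which acts beside SREBPs on lipogenic promoters, fell to 5.42 ± 0.771 FPKM in PM2.5, against 12.1 ± 1.57 FPKM in controls. Its values were 5.87, 4.53 and 5.86 FPKM in PM2.5 libraries 1 to 3 and 12.9, 13.1 and 10.3 FPKM in controls 1 to 3, with a log2 fold change of -1.16 ± 0.16 (edgeR quasi-likelihood adjusted p = 0.0434). Gpam, the mitochondrial acyltransferase that starts glycerolipid synthesis, fell to 8.94, 9.26 and 9.93 FPKM in PM2.5 libraries 1 to 3, against 17.0, 20.4 and 15.5 FPKM in controls 1 to 3. Its log2 fold change was -0.91 ± 0.13 (edgeR quasi-likelihood adjusted p = 0.0442). Neither kept its call in any fit on 5 of the 6 libraries, with adjusted p from 0.0706 to 0.23 for Nfya and 0.0706 to 0.248 for Gpam, and Gpam also missed the threshold in limma on log2(FPKM + 1) (adjusted p = 0.0571).

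The regulators held 16 tested genes with a median of 0.09, and Nfya was the member that passed edgeR's quasi-likelihood test, with 2 higher and 2 lower at an unadjusted p below 0.05 and 3 called by DESeq2. Thrsp, the thyroid hormone responsive protein of lipogenic tissue, had 17.7, 21.5 and 2.87 FPKM in PM2.5 libraries 1 to 3, against 0.868, 2.59 and 0.376 FPKM in controls 1 to 3. Its PM2.5 values were high in libraries 1 and 2 and only just above the highest control in library 3, and it did not pass edgeR's quasi-likelihood test (log2 fold change 3.47 ± 0.93, adjusted p = 0.122) and passed DESeq2 (adjusted p = 0.000387). Insig1, which retains SREBPs in the endoplasmic reticulum and is itself a sterol-responsive target, was at -0.26 ± 0.43 with all libraries and at 0.16 without control 3. Mlxipl had no row of that name in the data used here, so it was not analysed.

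Among the enzymes that supply citrate, acetyl-CoA and NADPH none of 15 tested genes passed edgeR's quasi-likelihood test, with 3 higher and 1 lower at an unadjusted p below 0.05 and 3 called by DESeq2, and the median was 0.13. Acss1, a mitochondrial acetyl-CoA synthetase, at 1.23 ± 0.37 and the cytosolic malate dehydrogenase gene Mdh1 at 0.36 ± 0.13 lay above the controls in every PM2.5 library and passed DESeq2 but not edgeR's quasi-likelihood test.

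Of 7 other chain-building genes none passed edgeR's quasi-likelihood test, with 1 higher and 1 lower at an unadjusted p below 0.05 and a median of -0.12, and Olah was the 1 that DESeq2 and limma called. Olah, the thioesterase that releases medium-length chains from fatty acid synthase in the mammary gland, had 6.18, 6.30 and 9.53 FPKM in PM2.5 libraries 1 to 3, against 20.0, 20.9 and 15.7 FPKM in controls 1 to 3. Its groups were well apart, with a log2 fold change of -1.36 ± 0.23 and adjusted p of 0.0557 with edgeR's quasi-likelihood test, 0.0473 with limma and 2.90e-05 with DESeq2. Acacb, the carboxylase whose malonyl-CoA restrains entry of fatty acids into mitochondria, was at 0.55 ± 0.23, in the opposite direction from Acaca, and Hsd17b8, a subunit of the mitochondrial synthesis pathway, at 0.63 ± 0.22. In the elongation list none of 9 passed edgeR's quasi-likelihood test or DESeq2, and Elovl1, the 1 gene at an unadjusted p below 0.05, which makes very long saturated chains, was at -0.60 ± 0.24. Hacd1 was at -0.34 ± 0.31 and Hsd17b12 at -0.14 ± 0.14, both of them enzymes of the elongation cycle.

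**Figure D3:**
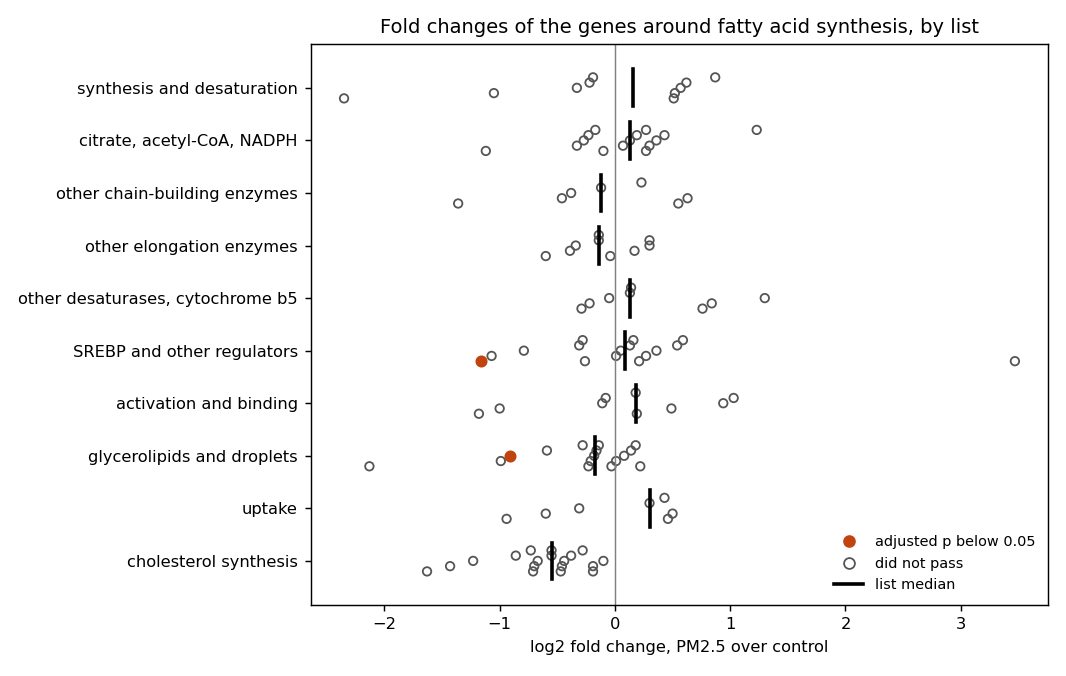
Each circle is a tested gene's log2 fold change, PM2.5 over control, by list, with filled circles for an adjusted p below 0.05 in edgeR and black bars for list medians. Nfya and Gpam are the filled circles, and the cholesterol list has the lowest median of the 10 lists shown, -0.55.

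Among 9 tested genes of fatty acid activation and binding none passed edgeR's quasi-likelihood test, 2 were higher and 2 lower at an unadjusted p below 0.05, and 4 passed DESeq2. The acyl-CoA synthetases split in direction, with Acsl1 at 1.03 ± 0.24 and Acsl4, which prefers arachidonate, at 0.94 ± 0.29, while Acsl3, which serves lipid droplets, had 20.6, 19.6 and 18.6 FPKM in PM2.5 libraries 1 to 3, against 27.2, 38.3 and 51.1 FPKM in controls 1 to 3. None of the 3 overlapped between the groups, and Acsl4 had 52.5, 32.7 and 27.4 FPKM in PM2.5 libraries 1 to 3 and 18.8, 25.1 and 15.1 FPKM in controls 1 to 3. Fabp5, a fatty acid binding protein, was at -1.18 ± 0.27 (edgeR quasi-likelihood adjusted p = 0.0963). The glycerolipid list had 16 tested genes and a median of -0.17, with Gpam the member that passed edgeR's quasi-likelihood test. It had 0 higher and 4 lower genes at an unadjusted p below 0.05, and 4 called by DESeq2, all lower. In 5 of the 16 the groups did not overlap, with PM2.5 below in each, where 15.2% of all genes lay so. Plin2, the coat protein of lipid droplets, was at 0.18 ± 0.27. In the uptake list none of 7 passed edgeR's quasi-likelihood test, 2 were higher and 2 lower at an unadjusted p below 0.05, and 2 passed DESeq2. The transporters Slc27a1 at 0.46 ± 0.13 and Slc27a4 at -0.60 ± 0.18 lay in opposite directions, and Lrp1, a receptor for lipoprotein remnants, was at 0.50 ± 0.17.

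The cholesterol synthesis enzymes, which the related factor SREBP-2 drives, had 18 of 18 fold changes below 0 and none that passed edgeR's quasi-likelihood test, with 3 at an unadjusted p below 0.05 and 1, Idi1, called by DESeq2. Over all 15303 genes tested 7594 fold changes were below 0, 11.7% were lower at an unadjusted p below 0.05 and DESeq2 called 11.6%, so the counts of 3 and 1 are near or below the background. The synthase gene Hmgcs1, early in the pathway, was at -1.63 ± 0.67, the isomerase gene Idi1 at -1.23 ± 0.38 and the squalene synthase gene Fdft1 at -0.55 ± 0.18. The list median of -0.55 moved to -0.06 without control 3, with 10 of 18 below 0, and to -1.02 without PM2.5 library 1. The 10 fatty acid genes split 4 below and 6 above 0 without control 3.

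The table's own annotation gave a wider view, taken up after the values were seen. Its set for the biosynthesis of unsaturated fatty acids held 33 genes, 5 of them among the 10, and none of 26 tested passed edgeR's quasi-likelihood test, with 6 at an unadjusted p below 0.05 and a median of -0.03. The fatty acid biosynthesis set had 15 tested genes, a median of -0.12 and none that passed, with 6 at an unadjusted p below 0.05. The elongation set had 25 tested genes, a median of 0.05 and none that passed, with 5 at an unadjusted p below 0.05. DESeq2 called 4, 5 and 3 genes in these sets, in the order given. Over all genes 20.9% passed at an unadjusted p below 0.05 and DESeq2 called 11.6%.

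Some markers of other cell types were high in the same PM2.5 libraries as some of these genes, and others were not. Adipoq, which fat cells secrete, had 20.1, 20.4 and 1.56 FPKM in PM2.5 libraries 1 to 3, against 1.17, 1.12 and 0.53 FPKM in controls 1 to 3. It was high in PM2.5 libraries 1 and 2, the libraries with the highest Thrsp, Fads1, Fads2 and Elovl5. Summed adipocyte markers were 263, 241 and 169 CPM in PM2.5 libraries 1 to 3, against 156, 182 and 207 CPM in controls 1 to 3, with 12 of 13 markers counted and 10 tested. None of the 10 passed edgeR's quasi-likelihood test, 3 were higher at an unadjusted p below 0.05, and 2 passed DESeq2. Fold changes were positive in 7 and negative in 3, Pparg at -0.34 ± 0.21, Pck1 at -1.25 ± 1.36 and Plin1 at -0.04 ± 0.70. Lipe, at 0.09 ± 0.36, made up 143 of the 263 CPM in PM2.5 library 1 and 139 of the 207 CPM in control 3. Cfd, at 1.00 ± 0.32, did not overlap between the groups and passed DESeq2 (adjusted p = 0.0428). Of the defining fat cell genes, Plin1 was at 0.535 ± 0.205 FPKM in PM2.5 and 0.547 ± 0.361 FPKM in controls. Cidec was at 0.448 ± 0.187 FPKM in PM2.5 and 0.136 ± 0.212 FPKM in controls, Lep lay near 0 in both groups, and both missed the filter. Fabp4 did not overlap between the groups, with a log2 fold change of 0.80 ± 0.33 (edgeR quasi-likelihood adjusted p = 0.23). Epithelial markers of oviduct and ovarian surface, 4 of 6 of them tested and none past edgeR's quasi-likelihood test, with 4 at an unadjusted p below 0.05 and 3 called by DESeq2, summed to 377, 490 and 62.5 CPM in PM2.5 libraries 1 to 3, against 42.0, 88.9 and 16.3 CPM in controls 1 to 3. Their part in the values of the fatty acid genes was not tested. With PM2.5 libraries 1 and 2 left out, 1 PM2.5 library remained, assumed to vary like the controls. Log2 fold changes were then 0.13 for Fads2, 0.15 for Fads1, 0.17 for Elovl5 and 0.07 for Me1. In these genes libraries 1 and 2 were the PM2.5 libraries above every control. The smaller values thus followed from the choice of libraries and do not bear on the markers. In the same fit Scd was -2.51 ± 0.88 and Fasn -1.08 ± 0.45.

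**Figure D4:**
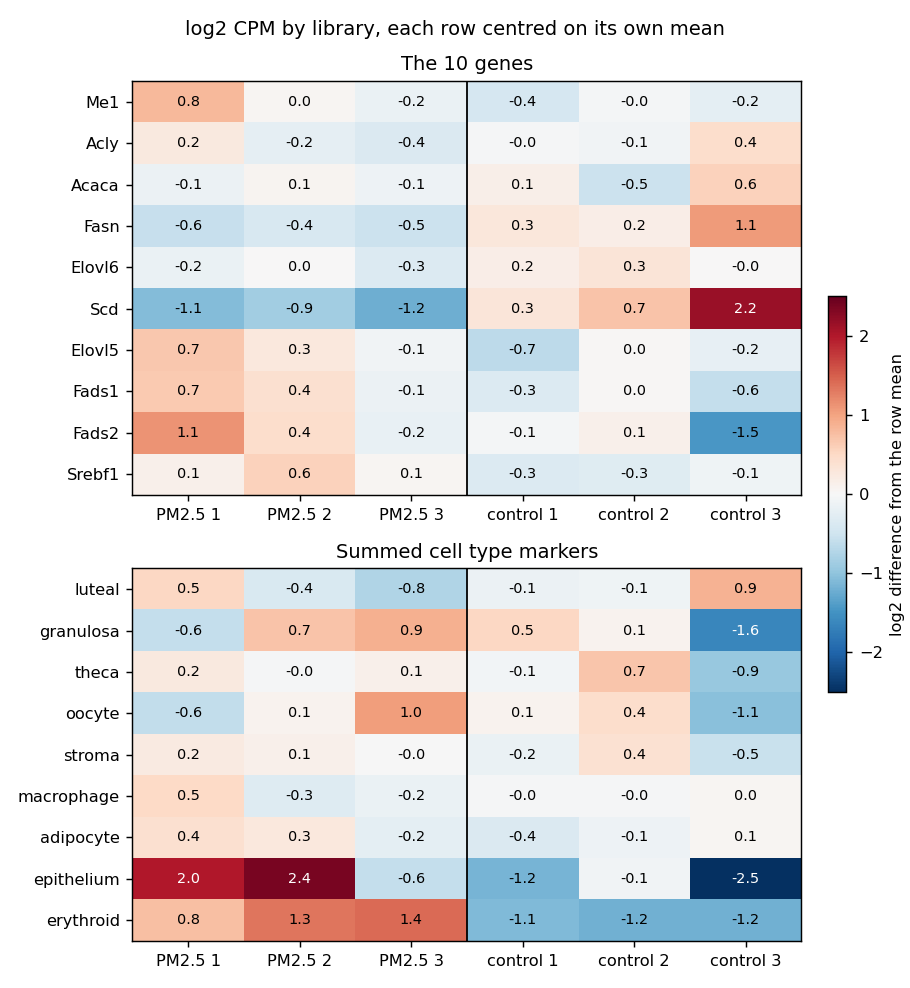
The upper panel shows log2 CPM of each of the 10 genes by library and the lower panel the log2 of summed CPM of cell type markers, each row centred on its own mean over the 6 libraries, PM2.5 at the left. Control 3 has the highest Scd (2.16) and Fasn (1.06) and the lowest Fads2 (-1.46), and the epithelial row is high in PM2.5 libraries 1 and 2.

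Summed luteal markers were 25324, 13580 and 10413 CPM in PM2.5 libraries 1 to 3, against 16032, 16374 and 32218 CPM in controls 1 to 3. Akr1c3 had 296, 1336 and 2000 CPM of these in PM2.5 libraries 1 to 3, against 4585, 4244 and 9536 CPM in controls 1 to 3. It was the 1 of 9 luteal markers whose groups did not overlap. Fold changes of the 9 were positive in 3 and negative in 6. Akr1c3, at -2.34 ± 0.69, passed DESeq2 (adjusted p = 0.0028) but not edgeR's quasi-likelihood test (adjusted p = 0.142). Summed granulosa markers were 3929, 9619 and 11000 CPM in PM2.5 libraries 1 to 3, against 8479, 6286 and 1915 CPM in controls 1 to 3. Their part in the values of the fatty acid genes was not tested. Summed red cell markers were 2565 to 4034 CPM in PM2.5 and 658 to 711 CPM in controls, with 3 of 4 tested markers higher in edgeR's quasi-likelihood test, and their part in the result was not tested. Summed macrophage markers were 75.4 to 134 CPM in PM2.5 and 92.3 to 97.4 CPM in controls, and theca markers 502 to 601 CPM in PM2.5 and 264 to 823 CPM in controls. Stromal markers were 1290 to 1514 CPM in PM2.5 and 891 to 1699 CPM in controls, and oocyte markers 73.8 to 234 CPM in PM2.5 and 54.6 to 153 CPM in controls. Of the brown fat markers 2 of 5 were tested, summing to 8.51 to 16.1 CPM in PM2.5 and 13.4 to 16.2 CPM in controls.

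The genes whose profile over the 6 libraries lay nearest to Fasn, by root mean square difference of centred log2 CPM among 13007 named genes, were Plec (0.05), Wwp2 (0.08) and Abcd4 (0.10), beside 0.58 for the spread of Fasn around its own mean. Nearest to Scd were Galnt9 (0.28), Dtx3l (0.31) and Usp13 (0.33), beside 1.21 for Scd. Adjusted p of the 6 in edgeR's quasi-likelihood test ran from 0.0782 to 0.144.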

How the data were processed

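The deposited table holds 1 row per gene with a whole-number count and an FPKM value per library, per the file headers. The count columns were used as the authors deposited them, and the FPKM columns are the authors' own scaling per kilobase and library total. Tools listed in the submitters' processing notes, with no roles, include StringTie 2.1.6, HISAT2 2.2.1 and cutadapt 1.9, beside edgeR and DESeq2. Per the labels' protocols, RNA was poly(A)-selected and copied with dUTP, which marks strand. Neither the genome build nor the strand setting of counting was found in the sources used here. Sequences of the rat genes were not used here.

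A mean of 0.5 FPKM or more over the 6 libraries was required, and 15303 genes were tested with edgeR 4.0.16 in R 4.3.3 (TMM factors, glmQLFit, glmQLFTest, two-sided, Benjamini-Hochberg over all genes tested at 0.05). The SE is the log2 fold change divided by the square root of F. DESeq2 1.42.0 and limma 3.58.1 on log2(FPKM + 1), which understates changes of low genes, were alternatives, beside other scalings, filters, a replicate block and left-out libraries. Exact permutation tests used scipy 1.17.1. Genes named outside the 10 are those past an adjusted p of 0.05 in each list, otherwise the 3 with the smallest p and a mean of at least 1 FPKM, plus 12 set genes and the 3 nearest profiles to Fasn and Scd; others were chosen after their values were seen. A few of the genes so selected are left out of the text. The members and lists were chosen with earlier results of these data known.

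In counts simulated for PM2.5 over control (15303 genes), 8% of genes changed 2-fold, 66% changed 4-fold, 96% changed 8-fold and 98% changed 16-fold were recovered, 50 genes at each size, and 10 of 144 calls were false. Libraries of a group differed by a chi-square per degree of freedom of 135 or more, above sampling noise, which does not show that they came from separate animals. The 10 genes had 217 to 44722 counts in a library.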

Additional observations from a re-analysis of the deposited data

How the results depend on the processing

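None of the 10 genes passed in edgeR or limma under any scaling, filter, block or left-out library run, and 2 passed in DESeq2. At an unadjusted p below 0.05 there were 4, beside 3193 of all 15303 genes, and 2 to 6 with a single library left out. There were 2 without PM2.5 library 2, beside 1898 of 15263 genes, and 2 without control 1, beside 2477 of 15332. The 6 came without PM2.5 library 3, beside 2538 of 15335 genes. The background thus differed between these fits too. Over all genes 142 changed, 1767 with DESeq2, 87 with edgeR's own filter, 8 without a filter, 0 to 7 with a library left out and 0 without PM2.5 libraries 1 and 2. In the surrounding lists 2 genes changed, 19 with DESeq2, 1 with edgeR's own filter and 0 without a filter, with any single library left out and without PM2.5 libraries 1 and 2. The cause was not tested, beyond fewer libraries in those fits. Same-numbered libraries are not said to be paired, and their deviations correlated at -0.177, 0.162 and 0.0932. With the replicate block 0 of the 10 genes, 0 genes of the lists and 1 gene overall changed, and Scd had a log2 fold change of -2.11 ± 0.44.

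Of 160 fold changes of the 10 genes under other settings, 1 turned its sign, Acaca at 0.10 without control 3 (-0.44 to 0.10 over single libraries left out). None of the other genes that turned passed in any fit with the full set of libraries: Insig1 at 0.16 without control 3 (-0.77 to 0.16), Scd2 at 0.07 and 0.04 without PM2.5 library 2 or 3 and 0.14 without control 3 (-0.27 to 0.14), Plin2 at -0.05 without control 1 (-0.05 to 0.46), and Plin1 at 0.14 and 0.01 in limma with pseudocounts of 0.1 and 1, 0.21 with the block, 0.25 and 0.18 without PM2.5 library 1 or control 2, and 0.26 without PM2.5 libraries 1 and 2 (-0.50 to 0.25 over single libraries left out, with no value without control 3, where it missed the filter). The ratio of Fads1 to Fads2 moved to a log2 difference of 0.03 without control 3, against -0.32. The count of genes with groups apart, 3, and of planned ratios apart, 3, did not change with CPM (levels) or counts (ratios) in place of FPKM.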
